A study of Homo sapiens with 8 samples.

Results

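The zinc finger genes of chromosome 19 were taken as all genes with a symbol of ZNF and a number that lie on chromosome 19 (GRCh38) and have at least 1 RefSeq coding transcript in each of the authors' 2 deposited stability tables. The rule uses gene names, positions and presence in the tables, not the measured values. It found 180 genes, of which all but ZNF781 are among the 250 coding ZNF genes that RefSeq places on the chromosome. Of the 71 others, 68 had no coding transcript in either table, and ZNF414, ZNF433 and ZNF549 had one in RBMS1 shRNA cells only. Of the 180 genes, 179 had at least 1 transcript listed in both tables, among 11302 genes of all kinds with such a transcript. ZNF546, the remaining gene, had a different transcript in each table and entered no summary. The cells were SW480, an established human colorectal adenocarcinoma line, which the series text calls a breast cancer line. They expressed a control shRNA, or else 1 that targets RBMS1, a protein that binds single-stranded nucleic acids and AU-rich RNA. Both kinds of cells received alpha-amanitin at 10 µg/mL, a toxin that blocks RNA polymerase II, and total RNA was taken at 0 h and at 9 h, with 2 libraries in each of the 4 groups and 8 in all. For the knockdown, 2 clones appear in the series text and 1 of them in the labels' protocol, so it is not resolved here whether the libraries carried 1 clone or both.

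The authors' deposited tables hold 1 log2 fold change, 9 h over 0 h, for each transcript and each kind of cell. The 2 libraries of a group are already combined in that number. No value per library could therefore be shown, no difference could be set against the spread between libraries, and no p-value is given for any gene. A fold change is relative to the rest of each library, so a value of 0 means that a transcript kept its share of the RNA, and a value of −1 means that its share fell 2-fold. In bulk RNA, a loss from all cells and a loss from some of them cannot be told apart. Of 6 colon epithelial marker genes, 4 were listed in both tables, and 0 of 5 markers of blood, vessel, connective tissue, liver and red cells were, although the tables hold no expression levels.

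Most ZNF proteins of chromosome 19 are repressors of the KRAB zinc finger family. Their C-terminal row of C2H2 zinc fingers reads DNA, often within transposable elements, and their N-terminal KRAB domain recruits the corepressor TRIM28, which brings the histone methyltransferase SETDB1 and heterochromatin proteins. The genes multiplied by tandem duplication and lie in clusters, and mRNAs of zinc finger transcription factors are known as a short-lived class. A KRAB domain was found in the translated coding sequence of 138 genes and was not found in 30, while 4 were unclear and 8 had no matching coding sequence. The median protein had 12 fingers, with 31 in ZNF91, 29 in ZNF850, 26 in ZNF845, 3 in ZNF580 and 1 in ZNF428.

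The unit that repeats in these proteins is given for 7 genes that the results turn on. Each line is the coding sequence of the first complete finger with the linker that follows it, 84 bases, 5′ to 3′ on the coding strand, from GENCODE release 29 transcripts. Capitals mark the codons of the 2 cysteines and 2 histidines that hold the zinc ion.
ZNF345: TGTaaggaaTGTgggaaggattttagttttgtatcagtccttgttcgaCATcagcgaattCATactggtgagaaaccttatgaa
ZNF155: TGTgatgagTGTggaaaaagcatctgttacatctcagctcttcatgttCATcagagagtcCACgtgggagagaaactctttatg
ZNF221: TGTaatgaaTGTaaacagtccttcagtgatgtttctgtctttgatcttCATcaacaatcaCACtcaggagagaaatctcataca
ZNF404: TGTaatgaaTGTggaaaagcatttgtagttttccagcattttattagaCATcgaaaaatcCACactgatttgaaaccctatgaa
ZNF331: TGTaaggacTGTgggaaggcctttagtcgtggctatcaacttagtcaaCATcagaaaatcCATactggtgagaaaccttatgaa
ZNF417: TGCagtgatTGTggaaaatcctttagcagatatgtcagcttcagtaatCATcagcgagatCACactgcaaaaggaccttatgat
ZNF587: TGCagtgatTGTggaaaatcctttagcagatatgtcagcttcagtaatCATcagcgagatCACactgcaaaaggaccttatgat

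Between pairs of these 7 units, 39 to 84 of the 84 bases were identical, with a median of 46. The units of ZNF417 and ZNF587 were the same in every base, and their whole proteins were 98.1% identical. Reads of such a pair can be split between the genes in counting, so the values of ZNF417 and ZNF587 are uncertain. The family as a whole was less alike. The median gene shared 3.77% of the 50-base windows of its whole transcript with a transcript of another gene. Windows were sought on either strand and in transcripts of any kind, so they do not measure likeness of coding sequence alone. Of the genes, 34 shared none, and 16 shared 30% or more. Among those 16 were ZNF709 with 92.0%, ZNF564 with 84.7%, ZNF223 with 61.9%, ZNF155 with 57.0% and ZNF224 with 48.3%.

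In control cells most of these mRNAs had values below 0. The median log2 fold change of the 179 genes was −0.63, with quartiles of −1.04 and −0.31. The median over all genes was −0.08, or 94.4% of the share of the RNA held at 0 h, which is not the amount left. On the same scale the median ZNF gene of chromosome 19 kept 64.6%. A value of −1 or lower was listed for 47 genes (26.3%), against 10.2% of all genes, and a value below 0 for 156 (87.2%), against 55.6%. At the other end, 5 genes stood at 1 or higher, ZNF121, ZNF30, ZNF404, ZNF468 and ZNF583, against 2.82% of all genes.

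In RBMS1 shRNA cells the median was −0.78, with quartiles of −1.15 and −0.33. The median gene kept 58.1% of its share of the RNA at 0 h, against 94.8% over all genes. The number of genes at −1 or lower was 64 (35.8%), against 9.52% of all genes, and 156 genes were again below 0, against 55.6%. The 3 genes at 1 or higher were ZNF419, ZNF580 and ZNF816, against 3.16% of all genes. A value of −1 or lower in both kinds of cells was found for 31 genes (17.3%), against 5.34% of all genes, and a value below 0 in both for 146 (81.6%), against 45%. A value of 1 or higher in both was found for 0 of the 179, against 0.911% of all genes.

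**Figure D1:**
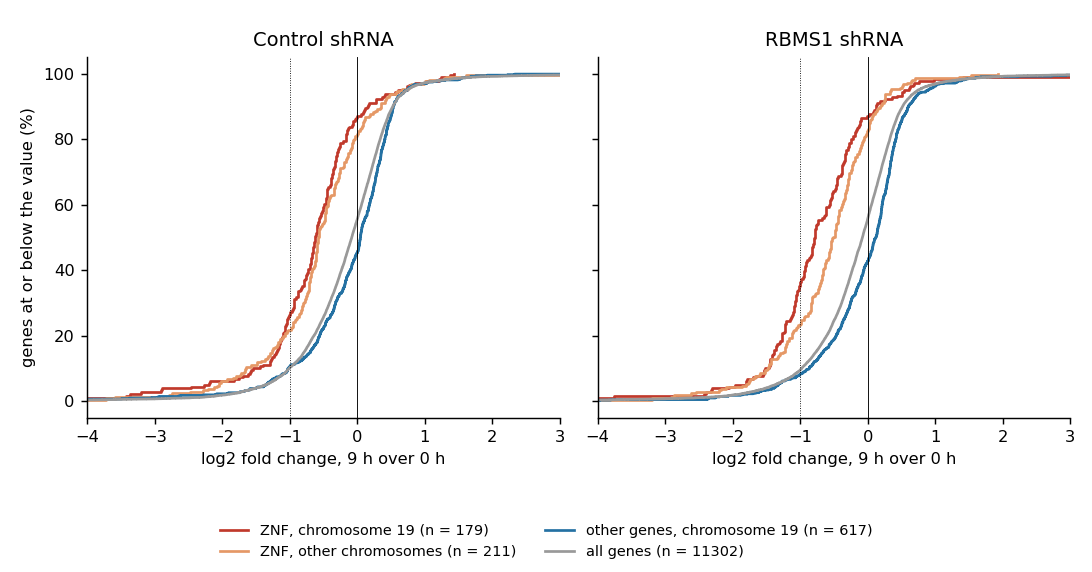
Cumulative share of genes (y axis, %) at or below a log2 fold change of 9 h over 0 h (x axis) in control shRNA cells (left) and RBMS1 shRNA cells (right), with 1 curve for each set of genes and a dotted line at −1. At −1 the curve of the 179 chromosome 19 ZNF genes stands at 26.3% and 35.8%, while all 11302 genes stand at 10.2% and 9.52%.

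Genes of the chromosome not named ZNF did not, as a set, stand as low. The 617 other genes of chromosome 19 had medians of 0.05 in control and 0.12 in RBMS1 shRNA cells, with 65 (10.5%) and 51 (8.27%) at −1 or lower. They include zinc finger genes with other names, among them the 7 C2H2 genes described below. Of the 617, the 66 genes that lie between ZNF genes inside the clusters had medians of −0.10 and 0.10, and the 551 outside them 0.05 and 0.13. At −1 or lower stood 11 (16.7%) and 7 (10.6%) of the 66, and 54 (9.80%) and 44 (7.99%) of the 551. Over all genes these shares were 10.2% and 9.52%. The 211 ZNF genes of other chromosomes had medians of −0.58 and −0.51, with 46 (21.8%) and 50 (23.7%) at −1 or lower. In control cells the 2 ZNF sets were thus close together. In RBMS1 shRNA cells the chromosome 19 set had the lower median, by a difference that could not be tested on these tables.

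Other C2H2 genes of chromosome 19, not named ZNF, were low as well. Of 17 such genes on a list made for this comparison, 7 had values, and all 7 were below 0 in both kinds of cells, with medians of −0.78 and −0.94. ZFP14, a KRAB zinc finger gene, was at −0.65 in control and −1.88 in RBMS1 shRNA cells. ZBTB45, whose protein pairs zinc fingers with a BTB domain, was at −1.23 and −0.54. Genes of the partners of the KRAB domain stood near 0: 28 listed genes of the TRIM28 and SETDB1 corepressor machinery had medians of −0.02 and 0.01, with 2 and 1 at −1 or lower. TRIM28 itself was at 0.17 and 0.32, SETDB1 at 2.11 and 1.03, and ATF7IP, the SETDB1 cofactor, at −1.51 and −1.70.

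Among genes with a known function, ZNF274, which brings SETDB1 to the 3′ ends of other zinc finger genes, had values of −1.75 in control and −1.34 in RBMS1 shRNA cells. ZNF473, a factor of histone pre-mRNA processing, was at −1.23 and −1.31. ZNF649, a KRAB repressor, was at −0.95 and −1.08, and ZNF146, a protein made almost entirely of fingers, at −0.79 and −0.98 over 3 transcripts. These 4 genes were below 0 in both tables, although the ZNF146 transcripts ran from −2.10 to 0.22 in control cells in the authors' deposited tables. ZNF420, which acts on p53, was at −0.68 and −1.22, and ZNF224, a KRAB repressor of aldolase A, at −0.38 and −1.05. ZNF91, which silences SVA elements, was at −0.34 and −0.19, and ZNF93, which silences L1 elements, at −0.70 and −0.15. Another ZNF91 transcript, in control cells only, was at 2.49 in the authors' deposited tables. ZNF417, a repressor of endogenous retroviruses, was at −1.17 and −1.26. ZNF350, a partner of BRCA1, was at −0.32 and −0.47, and ZNF675, an inhibitor of TRAF6 signalling, at −0.21 and −0.38. ZNF331, an imprinted gene, was one of the few members above 0 in both, at 0.60 and 0.67. ZNF43, ZNF85, ZNF154, ZNF382, ZNF568, ZNF582 and ZNF671, listed for what is known of them, did not meet the rule and have no value here.

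The lowest means over both tables belonged to ZNF548, ZNF700, ZNF345, ZNF784, ZNF627, ZNF155, ZNF227 and ZNF555. ZNF345 (chr19:36850365-36893218), with 15 fingers and no KRAB domain found, was at −2.46 in control and −3.76 in RBMS1 shRNA cells, ZNF784 at −2.90 and −1.97, and ZNF155 (chr19:43984188-43998326) at −2.26 and −2.42. These 3 genes were low in both kinds of cells on the transcripts listed in both tables. ZNF155 had further transcripts in the authors' deposited tables, at −1.76 and 1.38 in control and at −0.38 in RBMS1 shRNA cells, and over all of them its control value was −0.88. ZNF548 (chr19:57389854-57402992) was at −8.97 in control cells, the lowest value of all 11302 genes there, but at −1.08 in RBMS1 shRNA cells. The number of reads behind this value is not in the tables. ZNF700 was at −4.33 and −4.02, but in the authors' deposited tables only 1 of its 2 transcripts was low, at −8.71 and −8.09, and the other stood at 0.04 and 0.05. ZNF555 was at −2.89 and −0.93.

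At the top, 13 genes (7.26%) were above 0 in both kinds of cells, against 33.8% of all genes: ZNF121, ZNF331, ZNF404, ZNF419, ZNF426, ZNF428, ZNF468, ZNF493, ZNF580, ZNF599, ZNF682, ZNF761 and ZNF846. ZNF404 (chr19:43872365-43883964), with 14 fingers, was at 1.21 and 0.99. ZNF599, with 1 transcript, was at 0.56 and 0.51. Several high means rested on 1 of a gene's transcripts. ZNF468 was at 1.02 and 0.44, and in the authors' deposited tables its transcripts were at 1.96 and 0.08 in control cells. ZNF426 was at 0.76 and 0.51, with transcripts at 2.54 and −1.01 in control cells in the authors' deposited tables. ZNF121 was at 1.37 and 0.63, but in the authors' deposited tables its transcripts were at 3.30 and −0.56 in control cells and at 1.55 and −0.28 in RBMS1 shRNA cells. For ZNF761 those tables also list transcripts in 1 kind of cells only, at −8.91 in control and −1.59 in RBMS1 shRNA cells. Over all its transcripts ZNF761 was at −2.48 and −0.51, below 0 in both. ZNF493 had another transcript, in control cells only, at −0.957, and over all of them its control value was −0.29.

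Genes with and without a KRAB domain had close medians in control cells. The 137 genes with a KRAB domain and a value had a median of −0.63, with 38 (27.7%) at −1 or lower, and the 30 without one had −0.54, with 6 (20%). In RBMS1 shRNA cells the medians were −0.80, with 48 (35.0%) at −1 or lower, and −0.52, with 8 (26.7%). Over all genes, 10.2% in control and 9.52% in RBMS1 shRNA cells were at −1 or lower. Grouped by the number of fingers, the 48 genes with fewer than 10 had medians of −0.61 and −0.62, the 73 with 10 to 14 had −0.54 and −0.73, and the 50 with 15 or more had −0.68 and −0.91. The share at −1 or lower in RBMS1 shRNA cells was 42% among the 50. Across the 171 genes with these features, the Spearman correlation of the finger number with the fold change was −0.05 in control and −0.12 in RBMS1 shRNA cells, so finger number described little of the variation. Genes of one family share sequence and are not independent points.

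**Figure D2:**
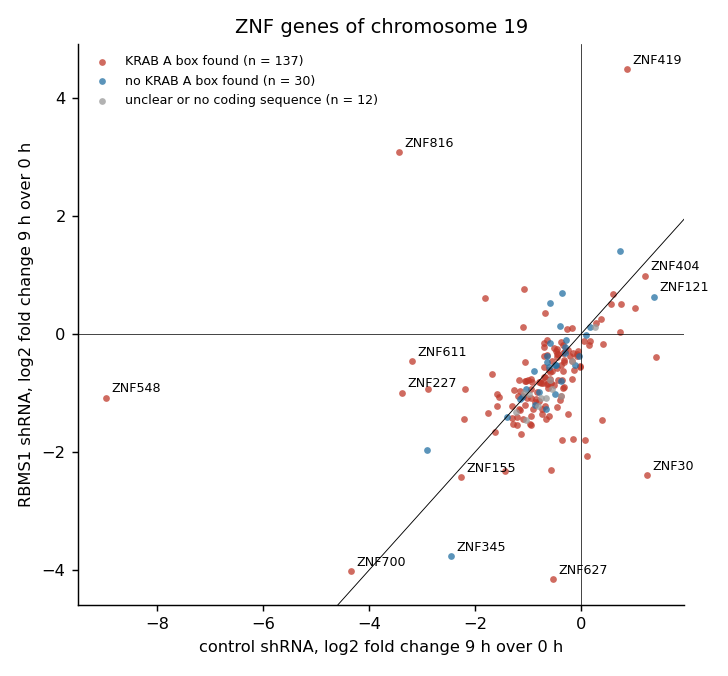
Log2 fold change of 9 h over 0 h in control shRNA cells (x axis) against RBMS1 shRNA cells (y axis), 1 point for each of the 179 genes, coloured by whether a KRAB domain was found, with the line of equal values. Most chromosome 19 ZNF genes lie in the lower left, 146 of 179 below 0 on both axes, and a few such as ZNF548 and ZNF816 lie far from the rest.

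The difference between the kinds of cells was taken as the value in RBMS1 shRNA cells less that in control cells, and the median difference of all genes, −0.0166, was subtracted to centre it. Its median over the 179 genes was −0.10, with quartiles of −0.35 and 0.19, and it was below 0 in 109 (60.9%), against 50% of all genes. A difference of −1 or lower was found for 11 genes (6.15%), against 3.9% of all genes, and of 1 or higher for 14 (7.82%), against 4.62%. Both tails held a larger share than over all genes, and the median size of the difference was 0.29 against 0.20. The 211 ZNF genes of other chromosomes had a median difference of −0.00, with 106 (50.2%) below 0. Their tails, with 6.16% at −1 or lower and 5.21% at 1 or higher, and their median size of 0.27 were close to those of the chromosome 19 genes. Without values per library, the spread that the libraries alone would give was not known. The fold changes of the 2 tables correlated across the 179 genes with a Pearson r of 0.33 and a Spearman rho of 0.54, against 0.49 and 0.67 over all genes.

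The lowest differences were those of ZNF627, ZNF30, ZNF28, ZNF567, ZNF430 and ZNF583. ZNF30 (chr19:34923841-34945168) was at 1.24 in control and −2.39 in RBMS1 shRNA cells, a centred difference of −3.61. ZNF28 was at 0.11 and −2.06, ZNF567 at 0.08 and −1.80, and ZNF430 at 0.40 and −1.46. These 4 genes were above 0 in one table and low in the other, but not on every transcript. In the authors' deposited tables the control value of ZNF567 joined transcripts at 2.46 and −2.30, and ZNF430 had another transcript, in control cells only, at −0.995. ZNF627 (chr19:11597483-11619161) was at −0.53 and −4.16, and in the authors' deposited tables the gap came from 1 transcript, at −0.71 and −8.03, while the other was at −0.35 and −0.28.

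The highest differences were those of ZNF548, ZNF816, ZNF419, ZNF611, ZNF610 and ZNF227. ZNF611 was at −3.20 in control and −0.46 in RBMS1 shRNA cells, and ZNF610 at −1.82 and 0.61. In the authors' deposited tables ZNF611 had another transcript, in control cells only, at −0.83. ZNF816 (chr19:52949385-52962881) was at −3.43 and 3.08, and the authors' deposited tables list 1 of its 3 transcripts at −9.08 and 9.65. ZNF419 (chr19:57487750-57496098) was at 0.86 and 4.48, while another of its transcripts, listed in RBMS1 shRNA cells only in the authors' deposited tables, was at −7.55. The same ZNF816 transcript thus stood at opposite extremes in the 2 kinds of cells. For ZNF419, different transcripts stood on opposite sides of 0 in RBMS1 shRNA cells.

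Along the chromosome, ZNF genes separated by more than 1 Mb were placed in different blocks, which gave 16 blocks numbered from the start of the chromosome. ZNF781, paired through GENCODE, was placed in none. Of these, 14 held members, and 7 held at least 10 and together 162. In control cells the medians of these 7 blocks ran from −0.73 to −0.38. The lowest was block 16 (chr19:55476617-58489533) at the end of the long arm, with 40 genes, a median of −0.73 and 14 (35%) at −1 or lower. The highest was block 5 (chr19:19668153-24129968), with 19 genes, a median of −0.38 and 2 (10.5%) at −1 or lower. In RBMS1 shRNA cells block 16 was at −0.81, with 18 (45%) at −1 or lower, and block 5 at −0.52, with 3 (15.8%). Over the 179 genes the shares at −1 or lower were 26.3% in control and 35.8% in RBMS1 shRNA cells. Over all genes they were 10.2% and 9.52%.

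Blocks 3, 9 and 15 lay between. Block 3 (chr19:11483429-12633834) had 21 genes with medians of −0.53 and −0.78, block 9 (chr19:36182060-37779586) had 19 with −0.69 and −0.98, and block 15 (chr19:51571283-53580269) had 30 with −0.58 and −0.60. Block 2 (chr19:7069703-9786160), with 12 genes, stood at −0.40 and −0.42, and its range ran from ZNF559, at −2.20 and −1.45, to ZNF121. In block 5 the lowest gene was ZNF708, at −2.19 and −0.93, and the highest ZNF493, at 0.37 and 0.26. The lowest of block 9 was ZNF345 and its highest was ZNF461, at −0.68 and 0.36. In block 3 the highest was ZNF878, at 0.06 and −0.12. The small blocks showed the same side of 0 for most genes: ZNF780A was at −1.20 and −1.05, ZNF780B at −0.75 and −0.82, ZNF526 at −0.30 and −0.21, ZNF574 at −0.29 and −0.10, ZNF333 at −0.81 and −1.22, and ZNF792 at −0.91 and −1.27. Of the genes of the small blocks, 5 were not below 0 in both: ZNF57, at −0.27 and 0.08, ZNF507, at −0.40 and 0.14, ZNF181, at −1.07 and 0.77, ZNF30, at 1.24 and −2.39, and ZNF599, at 0.56 and 0.51. ZNF780A had another transcript, listed in RBMS1 shRNA cells only in the authors' deposited tables, at 7.59.

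**Figure D3:**
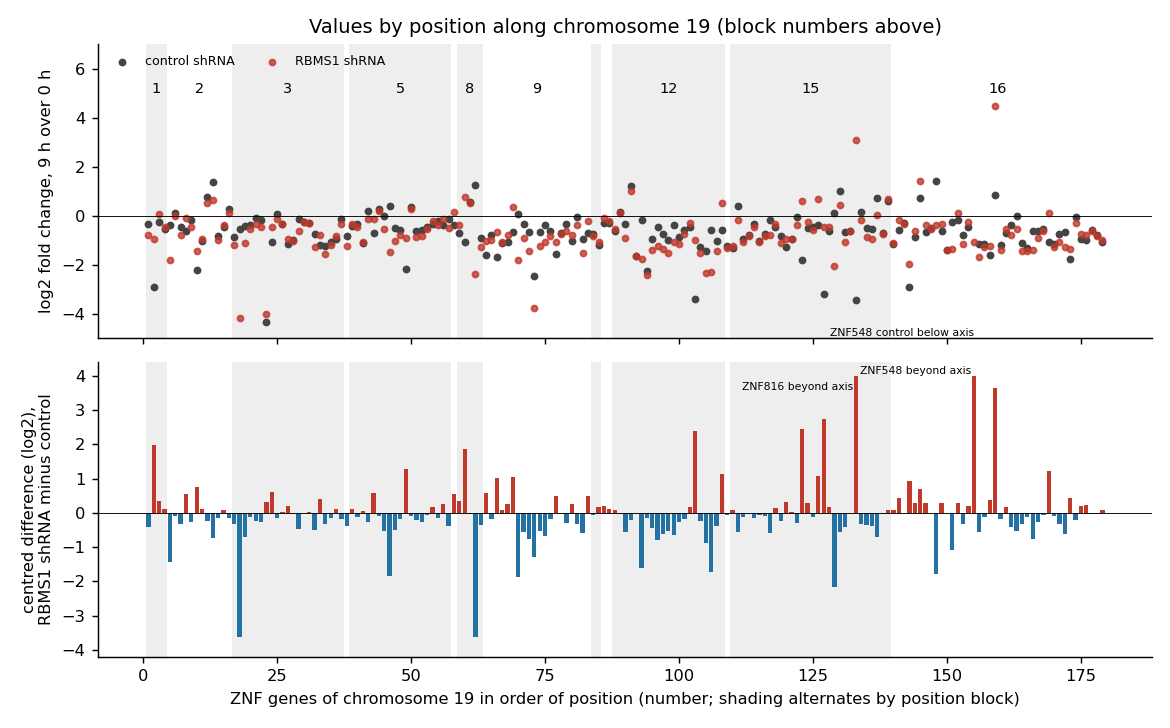
Upper panel: log2 fold change of 9 h over 0 h (y axis) of the chromosome 19 ZNF genes in order of position (x axis, number), control shRNA in black and RBMS1 shRNA in red, with shading that alternates by block. Lower panel: centred difference, RBMS1 shRNA minus control, of the same genes, where bars of ZNF548 and ZNF816 run beyond the axis. Block 12 shows 17 of 21 bars below 0.

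Block 12 (chr19:43530835-45076478) was picked for detail after its values were seen. Its 21 genes had a median of −0.61 in control and −1.24 in RBMS1 shRNA cells, and the number at −1 or lower was 6 (28.6%) and 13 (61.9%). Among the other 158 genes these shares were 25.9% and 32.3%, and among all genes 10.2% and 9.52%. In control cells block 12 was thus close to the rest of the family. The centred difference had a median of −0.27 and was below 0 in 17 of 21 genes. In the other 158 genes the difference had a median of −0.06 and was below 0 in 92 (58.2%). The 18 other genes that lie within block 12 had medians of −0.13 and 0.10, with 3 and 2 at −1 or lower. Between ZNF428 and ZNF234, 13 genes in a row had a difference below 0, the longest such run within a block.

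Within that run, ZNF221 was at −0.16 in control and −1.78 in RBMS1 shRNA cells, ZNF222 at −0.45 and −1.24, and ZNF223 at −0.74 and −1.36. ZNF224 was at −0.38 and −1.05, ZNF284 at −0.97 and −1.52, ZNF283 at −0.32 and −0.90, and ZNF230 at −0.94 and −1.39. The differences of these 7 genes ran from −1.61 to −0.43. Smaller gaps were found for ZNF45, at −1.63 and −1.65, ZNF155, at −2.26 and −2.42, ZNF225, at −0.88 and −1.16, ZNF234, at −0.58 and −0.76, ZNF404, at 1.21 and 0.99, and ZNF428, at 0.16 and 0.12. Beyond the run, ZNF112 was at −0.56 and −2.30, ZNF235 at −1.44 and −2.32, ZNF180 at −1.05 and −1.45, and ZNF233 at −1.28 and −1.53. The 4 genes with a difference above 0 were ZNF576, at −0.61 and −0.56, ZNF226, at −0.46 and −0.29, ZNF296, at −0.58 and 0.53, and ZNF227. ZNF227 (chr19:44207547-44237268) was at −3.37 and −0.996 over 4 transcripts. In the authors' deposited tables these 4 were at 0.10, −3.90, −6.91 and −2.78 in control cells and at −2.78, −1.33, 0.82 and −0.69 in RBMS1 shRNA cells. Of the 21 genes, 4 shared 30% or more of their 50-base windows with another gene, and without them the median difference was −0.24, below 0 in 13 of 17. Transcripts listed in only 1 of the authors' deposited tables go the other way for some genes: ZNF221 had one at −6.14 in control cells, ZNF222 one at 1.13 in RBMS1 shRNA cells, and ZNF180 one at −1.89 in control and another at 0.25 in RBMS1 shRNA cells. Over all transcripts of each table the differences of these 3 genes were 1.38, 0.40 and 0.88, and 15 of the 21 genes of block 12 were below 0.

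**Figure D4:**
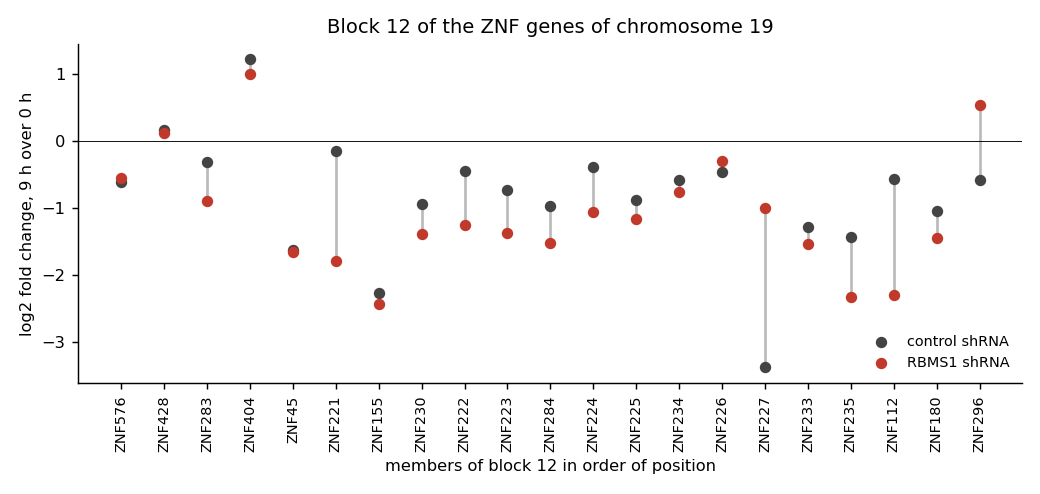
Log2 fold change of 9 h over 0 h of the 21 ZNF genes of block 12 in order of position, control shRNA and RBMS1 shRNA as separate points joined by a line for each gene. The RBMS1 shRNA point is lower in most genes, and ZNF227 and ZNF296 are the clearest exceptions.

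Transcripts of 1 gene often had different values. Of the 179 genes, 132 had 1 coding transcript listed in both tables and 47 had several. Among the 47 the median range between transcripts of a gene was 1.59 in control and 0.93 in RBMS1 shRNA cells, and the range was 1 or more in 30 and 22 genes and in both tables in 16. The same transcript was lowest in both tables in 28 of the 47 genes and in 9 of those 16. Neither the ranges nor the lowest transcripts were counted over all genes with several transcripts. These counts therefore do not set the family apart. The 132 single-transcript genes had medians of −0.63 and −0.81, so the family was as low where no transcripts were averaged. Their difference was below 0 in 84 (63.6%), against 50.1% of all genes with 1 coding transcript listed in both tables. Some of the 132, such as ZNF155 and ZNF221, had further transcripts in 1 table only, which did not enter. The size of the difference was smaller in the 132, with a median of 0.26 against 0.46 in the 47 with several transcripts. Over all single-transcript genes it was 0.16.

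Examples with wide ranges included ZNF580, ZNF583, ZNF417 and ZNF587. For ZNF580 the authors' deposited tables gave 2.97, −0.19 and −0.56 in control and 1.57, −0.58 and 3.25 in RBMS1 shRNA cells. For ZNF583 they gave 4.14 and −1.29 in control and 0.37 and −1.14 in RBMS1 shRNA cells. ZNF417 had transcripts at −0.04 and −2.29 and then −1.19 and −1.34, and ZNF587 at 0.05 and −2.22 and then −1.38 and 1.63, in the authors' deposited tables.

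**Figure D5:**
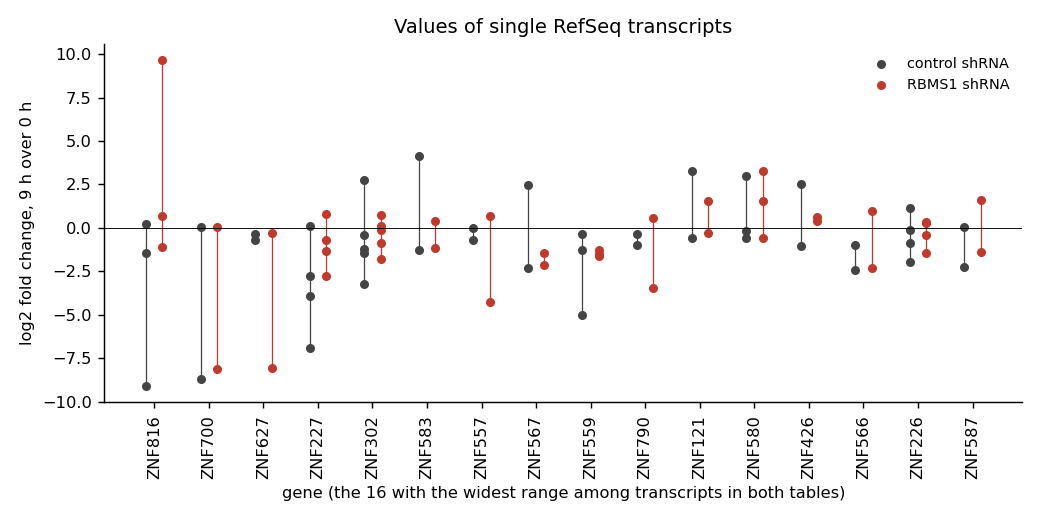
Log2 fold change of 9 h over 0 h (y axis) of single coding transcripts, 1 point each, in control shRNA cells (black) and RBMS1 shRNA cells (red), for the 16 ZNF genes of chromosome 19 with the widest range between transcripts (x axis). ZNF816 reaches from −9.08 in control to 9.65 in RBMS1 shRNA cells, and ZNF700 has the same low transcript in both.

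Properties of the mRNA beyond the fingers were compared as a description. The region after the stop codon had a median length of 1237 bases in these genes and 983 over all genes, and the coding sequence a median GC content of 42.4% against 52.1%. Over all 11085 genes with features, longer transcripts had lower fold changes, with a Spearman rho of −0.26 in control and −0.20 in RBMS1 shRNA cells. Among the 171 ZNF genes the same rho was 0.04 and 0.01. The length of the region after the stop codon gave −0.18 and −0.17 over all genes and 0.09 and 0.06 among the ZNF genes. Length thus did not order the ZNF genes as it ordered all genes.

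In the region after the stop codon, on the sense strand, the letters ATATA occurred in 67.8% of the ZNF genes and in 55.8% of all genes, and ATTTA, the core of AU-rich elements, in 73.7% and 67.5%. These regions differ in length, and longer ones hold any 5-letter word more often. The region was read from 1 transcript of each gene, while the fold changes average all coding transcripts listed in both tables. In ZNF221, ZNF429 and ZNF506 the region read had 0 bases, so these genes count as without the letters. The 116 ZNF genes with ATATA had a median difference of −0.11, below 0 in 73 (62.9%), and the 55 without it −0.00, below 0 in 28 (50.9%). Over all genes the share below 0 was 52.0% with ATATA and 47.5% without. For ATTTA, the 126 ZNF genes with it had a median difference of −0.11, below 0 in 80 (63.5%), and the 45 without it 0.06, below 0 in 21 (46.7%). Over all genes with ATTTA the share below 0 was 51.2%. The share over all genes without ATTTA was not taken, so the contrast for ATTTA lacks that background. The median fold changes with and without ATATA were −0.61 and −0.64 in control cells and −0.80 and −0.77 in RBMS1 shRNA cells. A match of letters does not show that a protein binds there.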

How the data were processed

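Total RNA of SW480 cells was depleted of ribosomal RNA and sequenced, per the labels' protocols. The submitters' processing notes list the tools STAR 2.5, Cufflinks and Cuffdiff and the assembly hg38. Normalisation, filters and other versions were not given in the sources used here. In the 2 tables that the authors deposited, each RefSeq transcript has a fold change, read as log2 because that is the scale Cuffdiff writes. A negative value was taken as less RNA at 9 h than at 0 h, since the quickly degraded mRNAs MYC, FOS and JUN are negative in both. The deposited tables hold 21328 transcripts (control shRNA) and 20474 (RBMS1 shRNA), no column per library and no counts, so depth and replicate spread are unknown. The labels do not tell whether both libraries of a group were grown separately.

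Coding accessions (19701) were paired with symbols through RefSeq GRCh38.p14 (19544) or GENCODE release 29 (102), and 55 stayed unpaired. For each gene the coding transcripts listed in both tables were averaged. A log2 size of 1 (2-fold) was counted in each direction, with no test. Fingers and the KRAB domain were counted in translated GENCODE coding sequences, since RefSeq proteins were not used here. A KRAB domain was called where at least 12 of 14 residues of its A box matched and not found where at most 5 did. The counting was tested on simulated data (Python 3.11.15, pandas 2.3.3, numpy 2.4.6, Biopython 1.88, matplotlib 3.10.9).

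Genes named were those with the 8 lowest and 8 highest means of both tables, the 6 lowest and 6 highest differences, the lowest and highest of each block, and 20 with a known role, of which 13 had values. The other genes of block 12, the list of 13 genes above 0 in both tables, genes counted in groups of 5 or fewer, and the gene examples of other families were named after their values were seen. The members and lists were chosen with earlier results of these data known. Alternatives were the median over transcripts, the least changing transcript, genes with 1 transcript, all coding transcripts of each table, non-coding accessions included, values over 5 in size left out, values relative to ribosomal protein genes, a 1.5-fold size, and near-identical members left out. Leaving out members that share 30% or more of their 50-base windows was chosen after seeing the data.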

Additional observations from a re-analysis of the deposited data

How the results depend on the processing

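No paired analysis was possible because the tables hold no column for a library, and for the same reason no library could be left out. The median difference stayed below 0 under every alternative run, from −0.10 to −0.05, and no median over the 179 genes, the KRAB genes or block 12 changed sign. The median difference of genes without KRAB, 0.04, ran from −0.0045 to 0.074. Counts that moved by over 1.5 times, and medians that moved, follow. With the least changing transcript, 2 genes were at 1 or higher in control and 1 in RBMS1 shRNA cells. With single-transcript genes these were 2 and 1, and differences of −1 or lower and 1 or higher numbered 7 and 8, among 132 genes. Those 7 and 8 were 5.303% and 6.061% of the 132, against 2.171% and 3.003% of all single-transcript genes. With non-coding accessions, 3 genes were at 1 or higher in control cells. Relative to ribosomal protein genes (80 genes, medians 0.41 and 0.38) the family medians were −1.04 and −1.16, with 96 and 102 genes at −1 or lower and 1 at 1 or higher in control cells, while all genes stood at −0.50 and −0.45 with 22.1% and 19.4% at −1 or lower. On that scale the KRAB genes were at −1.05 and −1.17, those without KRAB at −0.95 in control cells, and block 12 at −1.62 in RBMS1 shRNA cells with 11 genes at −1 or lower in control cells. At 1.5-fold, 96 genes were low and 10 high in control (22.2% and 7.89% of all genes), 106 and 9 in RBMS1 shRNA cells (20.7% and 8.0%), and 23 had a low difference (8.30%).

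Among 71 genes, those named by the rule, those of blocks 8 and 12 and those above 0 in both tables, 92 of 1815 values changed sign, 46 of them with the least changing transcript, 18 relative to ribosomal protein genes and 17 with all transcripts of each table. Of the 92, 69 were under 1 in size as reported. On the ribosomal scale ZNF428, ZNF493, ZNF682 and ZNF846 were below 0 in both kinds of cells. The 23 of size 1 or more follow. With the least changing transcript, control values became −0.56 (ZNF121), 0.10 (ZNF227), −1.29 (ZNF583), 0.047 (ZNF587), 0.043 (ZNF700) and 0.25 (ZNF816). RBMS1 shRNA values became −0.58 (ZNF580) and 0.052 (ZNF700), and differences became −0.66 (ZNF461), 0.16 (ZNF567), 0.16 (ZNF583), −1.41 (ZNF587), 0.081 (ZNF627) and −1.31 (ZNF816). Without values over 5, the difference of ZNF627 was 0.084, ZNF700 was at 0.043 and 0.052, and ZNF816 was at −0.20 in RBMS1 shRNA cells. With all transcripts of each table, ZNF419 was at −1.54 in RBMS1 shRNA cells with a difference of −2.38, ZNF221 and ZNF708 had differences of 1.38 and −0.46 and ZNF780A was at 1.11 in RBMS1 shRNA cells. Depth is unknown, so single values carry no error.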
